A study of Homo sapiens with 4 samples.

Results

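Histamine and the basic granule proteins are hallmarks of eosinophils, basophils and mast cells, and 10 genes that encode them or mark these cells were examined in human promyelocytic leukaemia cells with and without added JMJD3. The genes were HDC, PRG2, PRG3, EPX, RNASE2, RNASE3, CLC, CPA3, MS4A2 and MS4A3, which are 10 of the 60662 genes in the deposited table. They were chosen by function with their measured values in the comparison of JMJD3 with vector cells already known, so their differences between these groups are given as a description with no test. NB4, an established M3/APL cell line that carries the PML-RARα fusion, had been transduced with a lentiviral control vector (2 libraries) or with a vector for JMJD3, the histone H3K27 demethylase encoded by KDM6B (2 libraries). The control vector holds no JMJD3, both groups carry the fusion gene, and the added JMJD3 was made from the vector and not from the cell's own gene. The sources used here do not say whether replicate libraries were transduced separately, so p-values measure only the spread between these libraries, which may be technical.

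Histidine decarboxylase makes histamine from histidine, and basophils and mast cells store the amine in their granules until an allergen crosslinks IgE on its receptor. Eosinophil granules hold a different cargo, made of major basic protein, eosinophil peroxidase and a pair of cationic ribonucleases that are toxic to parasites and to host tissue. These lineages branch from myeloid progenitors under the control of GATA and C/EBP factors, whereas a promyelocyte fills azurophil granules with myeloperoxidase and serine proteases.

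For every gene the authors gave a count and an FPKM value (fragments scaled to transcript length and to library size) in each library. In each count column between 90.8% and 91.5% of the values above 0.5 fragments were whole multiples of a step particular to that library, within a tolerance of 0.02 fragments. Dividing the step out gave 34190352 and 38947014 fragments in vector libraries 1 and 2, and 35431665 and 41876181 in JMJD3 libraries 1 and 2. Fragments are given below on this scale, which was inferred from the values and is not described in the sources used here. CPM stands for counts scaled to library size with the TMM method, and does not depend on the step. A gene with 0 fragments could have held up to 3, which is between 0.0671 and 0.0925 CPM over the libraries, and this covers counting error only. By the labels, lane 20 held vector library 1 and lane 17 held the remaining 3, so within lane 17 a single vector library faces both JMJD3 libraries.

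KDM6B had 511 and 501 fragments in the vector libraries and 1412 and 1973 in the JMJD3 libraries. Both JMJD3 libraries, at 37.9 and 44.2 CPM, lay above both vector libraries, at 15.8 and 13.7 CPM, as their labels say (log2 fold change 1.48, standard error 0.13, adjusted p = 0.00114 by edgeR, and 1.54 within lane 17). Reads of the vector's transcript and of the endogenous gene are counted together.

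By mean CPM, 5 of the 10 genes were at least 2-fold higher in JMJD3 cells (HDC, PRG2, PRG3, CLC and MS4A2), 1 was at least 2-fold lower (CPA3) and 4 lay within 1.5-fold (EPX, RNASE2, RNASE3 and MS4A3). Among the 15246 genes that passed the filter on low counts, 8.70% had a fitted change of at least 2-fold upward and 3.56% of at least 2-fold downward, and since the genes were chosen with this contrast in view nothing is read from that difference. The filter kept 8 of the 10 genes, and CLC and CPA3 were too low to pass it. Together the 10 genes took 0.0642% and 0.0687% of the counts in the vector libraries and 0.170% and 0.156% in the JMJD3 libraries. This difference came from PRG2 (a mean of 193 CPM in vector and 779 CPM in JMJD3 cells) and HDC (29.4 and 324 CPM). RNASE2, the most abundant of the 10 in vector cells, went the other way (340 and 291 CPM). RNA was taken from bulk cells, so a larger number of cells that express a gene and more RNA in each cell cannot be told apart.

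**Figure D1:**
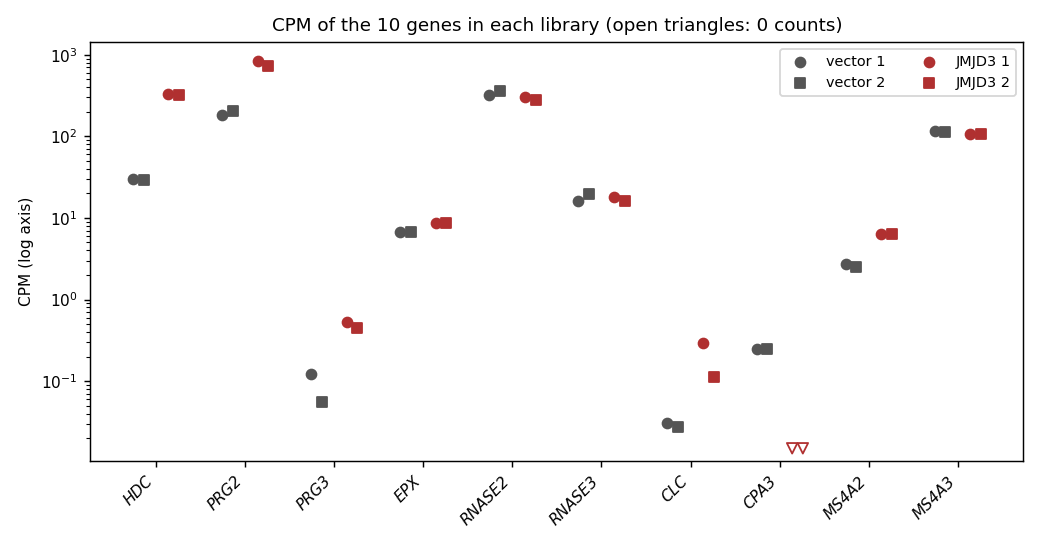
CPM of each of the 10 genes on a log axis, with 1 point for each of the 2 vector (grey) and 2 JMJD3 (red) libraries, circles for replicate 1 and squares for replicate 2, and open triangles at the foot of the axis for libraries with 0 counts. HDC stands at 29.7 and 29.2 CPM in vector cells and at 328 and 319 CPM in JMJD3 cells, while both JMJD3 libraries of CPA3 are at 0.

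HDC (ENSG00000140287), the enzyme of histamine synthesis, lies on the minus strand of chromosome 15 (chr15:50534144-50558162, GRCh37). It had 962 and 1063 fragments in vector libraries 1 and 2, and 12243 and 14269 in JMJD3 libraries 1 and 2. Replicates of a group were thus close together, and the groups lay far apart. The mean level was 29.4 ± 0.361 CPM with the vector and 324 ± 6.28 CPM with JMJD3 (SD, n = 2 each), which is 11.0-fold higher (fitted log2 fold change 3.46, standard error 0.08). Within lane 17 the fitted log2 fold change was 3.43. By FPKM it held rank 5283 and 5225 of all genes in the vector libraries and rank 567 and 578 in the JMJD3 libraries. The genes on either side of HDC, taken as the nearest tested protein-coding genes after the values were known, are SLC27A2, 5.6 kb away, and GABPB1, 9.4 kb away. Their log2 fold changes were 0.27 (adjusted p = 0.0352 by edgeR) and 0.13 (adjusted p = 0.302 by edgeR). SLC27A2 passed under 5 of its 13 alternatives, with adjusted p-values from 0.00757 to 0.405, and not without JMJD3 library 1 (0.405) or 2 (0.246). GABPB1 turned to -0.10 on both FPKM scales, so no direction is given for it.

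To compare members by sequence, which did not enter their choice, the 300 bases from 250 before to 50 after the transcript start were taken from RefSeq (GRCh38.p14) for the 8 members that matched, HDC, PRG3, RNASE2, RNASE3, CLC, CPA3, MS4A2 and MS4A3. PRG2 and EPX had no match. Each window was searched on both strands. The core of a C/EBP site was taken as TTGCNNAA. A motif of the GATA factors was taken as AGATAA, and the form with the letters TGATAA was counted with it. The motif of ETS factors such as PU.1 was taken as GAGGAA. The 5 windows shown are those of HDC, of PRG3, of CPA3, and of the adjacent MS4A2 and MS4A3, as examples of members that were higher in JMJD3 cells, at 0 there, or neighbours with unlike values. Capitals mark motif matches, each sequence runs 5′ to 3′ on the gene's strand, and a match on the opposite strand appears as its complement read backwards. HDC is at chr15:50265677-50265976 (minus strand), PRG3 at chr11:57381101-57381400 (minus), CPA3 at chr3:148865046-148865345 (plus), MS4A2 at chr11:60088414-60088713 (plus) and MS4A3 at chr11:60056415-60056714 (plus).
HDC: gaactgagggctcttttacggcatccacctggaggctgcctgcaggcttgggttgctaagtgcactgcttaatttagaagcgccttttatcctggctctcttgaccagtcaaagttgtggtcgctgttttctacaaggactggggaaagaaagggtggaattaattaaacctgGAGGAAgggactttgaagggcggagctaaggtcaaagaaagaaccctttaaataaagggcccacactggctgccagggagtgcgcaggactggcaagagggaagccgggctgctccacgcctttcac
PRG3: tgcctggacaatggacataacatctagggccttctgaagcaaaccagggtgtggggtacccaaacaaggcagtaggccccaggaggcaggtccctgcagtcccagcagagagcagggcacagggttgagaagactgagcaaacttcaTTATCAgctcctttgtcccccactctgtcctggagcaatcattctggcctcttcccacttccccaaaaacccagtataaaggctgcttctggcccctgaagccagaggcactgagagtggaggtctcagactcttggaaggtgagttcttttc
CPA3: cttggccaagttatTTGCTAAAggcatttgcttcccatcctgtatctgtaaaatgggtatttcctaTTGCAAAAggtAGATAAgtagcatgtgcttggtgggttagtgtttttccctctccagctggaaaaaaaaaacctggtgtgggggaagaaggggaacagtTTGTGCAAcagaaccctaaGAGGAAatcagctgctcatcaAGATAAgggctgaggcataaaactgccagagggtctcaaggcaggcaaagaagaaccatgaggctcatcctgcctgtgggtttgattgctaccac
MS4A2: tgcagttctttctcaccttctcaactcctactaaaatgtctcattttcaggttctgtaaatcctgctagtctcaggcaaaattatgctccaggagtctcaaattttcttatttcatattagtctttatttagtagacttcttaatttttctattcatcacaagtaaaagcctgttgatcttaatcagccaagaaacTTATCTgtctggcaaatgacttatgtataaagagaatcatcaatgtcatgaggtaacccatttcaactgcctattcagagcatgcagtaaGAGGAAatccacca
MS4A3: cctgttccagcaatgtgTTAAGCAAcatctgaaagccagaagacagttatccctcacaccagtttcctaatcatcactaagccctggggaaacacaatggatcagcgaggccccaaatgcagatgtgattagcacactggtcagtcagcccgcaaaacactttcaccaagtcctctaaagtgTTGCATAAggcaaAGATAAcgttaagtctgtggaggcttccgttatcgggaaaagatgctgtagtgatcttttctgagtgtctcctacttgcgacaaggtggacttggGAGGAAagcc

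The C/EBP core was found in 4 of the 8 windows (RNASE2, RNASE3, CPA3 and MS4A3) and in 10.6% of 27305 promoters of the same length. The windows of the paralogs RNASE2 and RNASE3 are identical at 242 of 300 bases and have the same letters at this match, so the 4 windows are not independent. A GATA motif was found in 5 of the 8 (PRG3, CLC, CPA3, MS4A2 and MS4A3) and in 16.6% of all promoters. GAGGAA was found in 5 of the 8 (HDC, CLC, CPA3, MS4A2 and MS4A3) and in 27.6% of all promoters. These are matches of letters, with no test and no measure of binding. CPA3, at 0 in JMJD3 cells, held 3 C/EBP and 2 GATA matches, and HDC held neither of these motifs. The windows were poor in CpG, with between 0 and 7 CG pairs each against a median of 14.0 over all promoters. Such windows are common, since 34.4% of all promoters held 5 or fewer CG pairs. The GC content of the windows was 35.3% to 54.3%, against a median of 58.3%, and the motif shares were not matched for it.

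**Figure D2:**
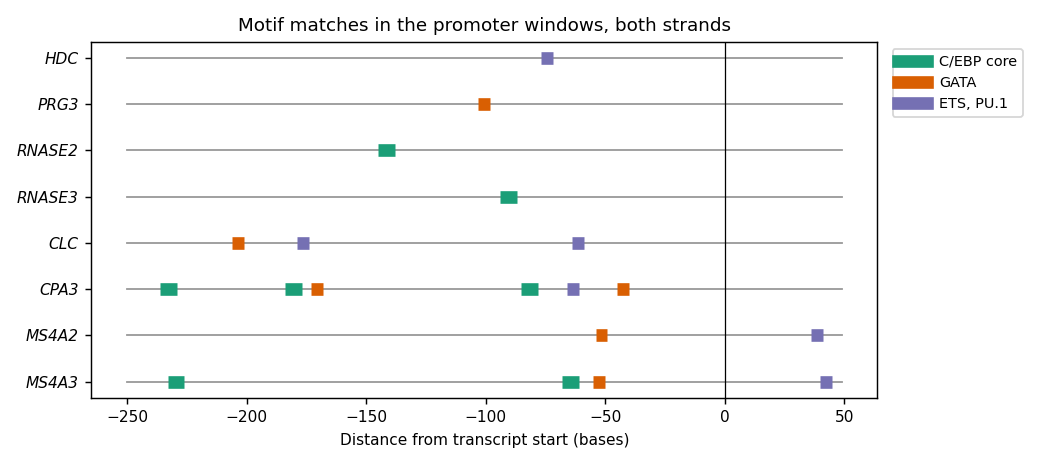
Motif matches on both strands in the 300-base promoter windows of 8 genes, by distance from the transcript start in bases (horizontal axis), with 1 line for each gene and 1 colour for each motif. CPA3 has 3 C/EBP core and 2 GATA matches, and HDC has a single GAGGAA match.

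Among the eosinophil granule proteins, PRG2 and PRG3 were higher in JMJD3 cells, while EPX, RNASE2 and RNASE3 lay within 1.5-fold. PRG2 (ENSG00000186652, chr11:57154253-57158123) encodes major basic protein, the crystalline core of the granule. It had 5852 and 7509 fragments in the vector libraries and 31227 and 32223 in the JMJD3 libraries. The means were 193 ± 18.0 and 779 ± 82.0 CPM (SD, n = 2 each), which is 4.03-fold higher, with a fitted log2 fold change of 2.01 (standard error 0.11). The spread within each group was small against the gap between them. An annotated read-through gene with no symbol shares 791 exon bases with PRG2, 42.9% of its exon bases, and was assigned between 343 and 816 fragments a library, so some reads of PRG2 may have been divided between them.

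PRG3 (ENSG00000156575), a homologue of major basic protein, lies 5.6 kb from PRG2 on the same strand. It was near the limit of detection in vector cells, with 4 and 2 fragments, and had 20 fragments in each JMJD3 library, through which alone it passed the filter. The ratio of the summed fragments was 5.60 (exact 95% counting interval 2.36 to 16.2). With 4 and 2 fragments the vector libraries set the size of this ratio, and the fitted log2 fold change of 2.38 became 3.14 without vector library 1 (within lane 17) and 1.86 without vector library 2. Per length, PRG2 exceeded PRG3 by 764- and 1967-fold in the vector libraries and by 822- and 844-fold in the JMJD3 libraries. Genes beside the pair differed less between the groups, with log2 fold changes of 0.24 for SLC43A3 (adjusted p = 0.0301 by edgeR) and -0.44 for SSRP1 (adjusted p = 0.00585 by edgeR). SLC43A3 lost its call under 8 of its 13 alternatives, with adjusted p-values from 0.00385 to 0.326, among them the fits without JMJD3 library 1 (0.326) or 2 (0.281), and SSRP1 did not pass without JMJD3 library 2 (0.0661, against a lowest of 9.96e-06).

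EPX (ENSG00000121053, chr17:56270087-56282535) encodes eosinophil peroxidase, which forms hypobromous acid. It had 217 and 247 fragments in vector cells and 326 and 392 in JMJD3 cells, at 6.69 and 6.77 CPM against 8.74 and 8.77 CPM. The groups did not overlap, but the difference was 1.30-fold. Its FPKM rank stayed between 10099 and 10435 in the 4 libraries.

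RNASE2 (ENSG00000169385), the eosinophil-derived neurotoxin, and RNASE3 (ENSG00000169397), the eosinophil cationic protein, are ribonuclease paralogs 63.1 kb apart on chromosome 14. RNASE2 was at 325 and 356 CPM in the vector libraries and at 304 and 278 CPM in the JMJD3 libraries. The vector libraries were the higher ones, by 1.17-fold on average. RNASE3 was at 16.1 and 19.6 CPM in vector cells and at 17.9 and 16.3 CPM in JMJD3 cells, and these ranges overlapped. The RNASE3 value turned from a log2 fold change of -0.06 to 0.09 or -0.23 when single libraries were left out, so no direction can be given for it. The longest coding transcripts of the pair are 88.8% identical over 717 aligned bases, with a longest shared run of 67 bases, so reads of one can have been assigned to the other. Their promoter windows were identical at 242 of 300 bases. The sum of both was 341 and 375 CPM in the vector libraries and 322 and 294 CPM in the JMJD3 libraries.

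CLC (ENSG00000105205, chr19:40221895-40228669) encodes the galectin that forms Charcot-Leyden crystals. It was barely detected, with 1 fragment in each vector library and 11 and 5 in the JMJD3 libraries. Their ratio was 6.72, with an exact 95% counting interval from 1.58 to 60.3. Both JMJD3 libraries lay above both vector libraries, at a depth that leaves the size of the difference unknown.

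The genes shared by basophils and mast cells pointed in different directions. MS4A2 (ENSG00000149534, chr11:59855734-59865940), the beta chain of the high-affinity IgE receptor, had 88 and 90 fragments in vector cells and 240 and 284 in JMJD3 cells. It was at 2.59 ± 0.173 and 6.39 ± 0.0553 CPM (SD, n = 2 each), 2.47-fold higher, with a fitted log2 fold change of 1.30 (standard error 0.14) and 1.34 within lane 17. MS4A3 (ENSG00000149516), a relative expressed in basophils and granulocyte progenitors, lies 17.1 kb away and did not share this difference. It was at 116 and 114 CPM in the vector libraries and at 108 CPM in both JMJD3 libraries, which is 1.06-fold lower. Over both genes, the windows shown above each hold a GATA match, 54 bases before the start in MS4A2 and 55 in MS4A3. The next tested genes outward, chosen after the values were known, were MS4A6A, 73.5 kb from MS4A2, and TCN1, 190.1 kb from MS4A3. They rose by log2 fold changes of 1.48 (adjusted p = 0.00812 by edgeR) and 1.54 (adjusted p = 0.0161 by edgeR). Both were low, at means of 0.483 and 0.331 CPM in vector cells and 1.37 and 0.966 CPM in JMJD3 cells. MS4A6A lost its call with limma on either FPKM scale. TCN1 did not pass without JMJD3 library 1 (adjusted p = 0.0880) or with the Wald test of DESeq2 (0.0566), over a range from 0.00166 to 0.0880.

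CPA3 (ENSG00000163751, chr3:148583083-148614990), the carboxypeptidase of mast cell granules, had 8 and 9 fragments in the vector libraries and 0 in both JMJD3 libraries. Against a floor of 3 fragments in each JMJD3 library, it was at least 3.34-fold lower. It was thus the single member that was lower by 2-fold or more, from a level of 0.247 CPM in vector cells.

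Levels of different genes were compared on the FPKM scale, which allows for transcript length. In vector cells the order was RNASE2 (702 ± 55.6 FPKM), PRG2 (169 ± 18.7), MS4A3 (145 ± 4.19), RNASE3 (39.7 ± 6.03), HDC (19.4 ± 0.260), EPX (2.77 ± 0.0780), MS4A2 (1.35 ± 0.233), CPA3 (0.372 ± 0.0321), PRG3 (0.148 ± 0.0786) and CLC (0.0797 ± 0.00561), each as mean ± SD over 2 libraries. PRG2 exceeded MS4A3 by little more than its own SD, and the gap between PRG3 and CLC was smaller than the SD of PRG3. In JMJD3 cells the order was PRG2 (667 ± 66.9 FPKM), RNASE2 (585 ± 31.2), HDC (206 ± 1.49), MS4A3 (133 ± 0.0955), RNASE3 (37.0 ± 2.02), EPX (3.54 ± 0.0169), MS4A2 (3.50 ± 0.218), PRG3 (0.802 ± 0.0954), CLC (0.538 ± 0.336) and CPA3 at 0. EPX overlapped with MS4A2, and PRG3 with CLC, while PRG2 exceeded RNASE2 by little more than its own SD. The leading place thus passed from RNASE2 to PRG2, if narrowly. The FPKM of PRG2 was 0.235 and 0.246 times that of RNASE2 in the vector libraries and 1.18 and 1.10 times in the JMJD3 libraries.

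**Figure D3:**
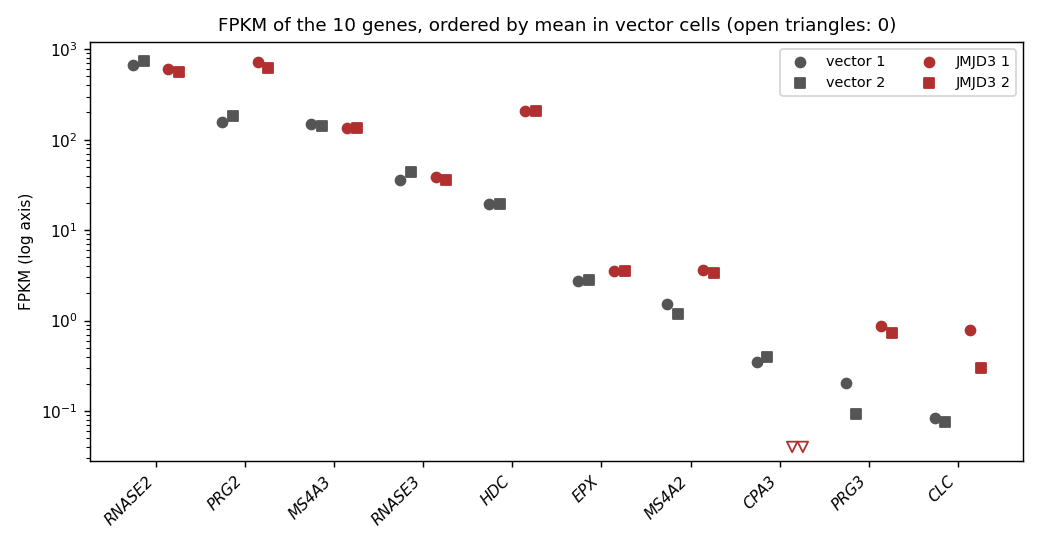
FPKM of the 10 genes on a log axis, ordered by their mean in vector cells, with 1 point for each vector (grey) and JMJD3 (red) library and open triangles for 0. RNASE2 leads in vector cells at 702 FPKM on average, and PRG2 in JMJD3 cells at 667 FPKM.

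Other genes of these cells were described by 6 lists, which hold 82 genes, of which 44 were tested. At an adjusted p under 0.05 in the quasi-likelihood fit of edgeR, 24 rose and 6 fell, against 21.6% of all 15246 tested genes that rose and 19.1% that fell. Their median log2 fold change was 0.55, and that of all tested genes 0.04. The lists were chosen with earlier results of these data known, so nothing is read from these differences between listed and all genes. For the same reason, the adjusted p-values of listed genes describe these libraries and are no independent test. Within lane 17, in a fit that reuses 3 of the 4 libraries and so is no independent check, 22 rose and 8 fell. Without JMJD3 library 2 the counts were 17 and 3. Of the genes counted, 4 that rose (CCR3, ADORA3, TPSD1 and ENPP3) reached the low-count limit of 0.269 CPM in the JMJD3 libraries alone, and 1 that fell (CPA6) in the vector libraries alone, so these entered the test through the group where they were high. With no filter 19 rose and 5 fell. Mitochondrial genes took 7.91% and 7.65% of the counts in the vector libraries and 5.73% and 5.86% in the JMJD3 libraries. The 10 most abundant genes of a library took 9.58% and 9.44% against 7.63% and 7.68%. Both shares were thus lower in JMJD3 cells, and their part in these values was not tested.

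**Figure D4:**
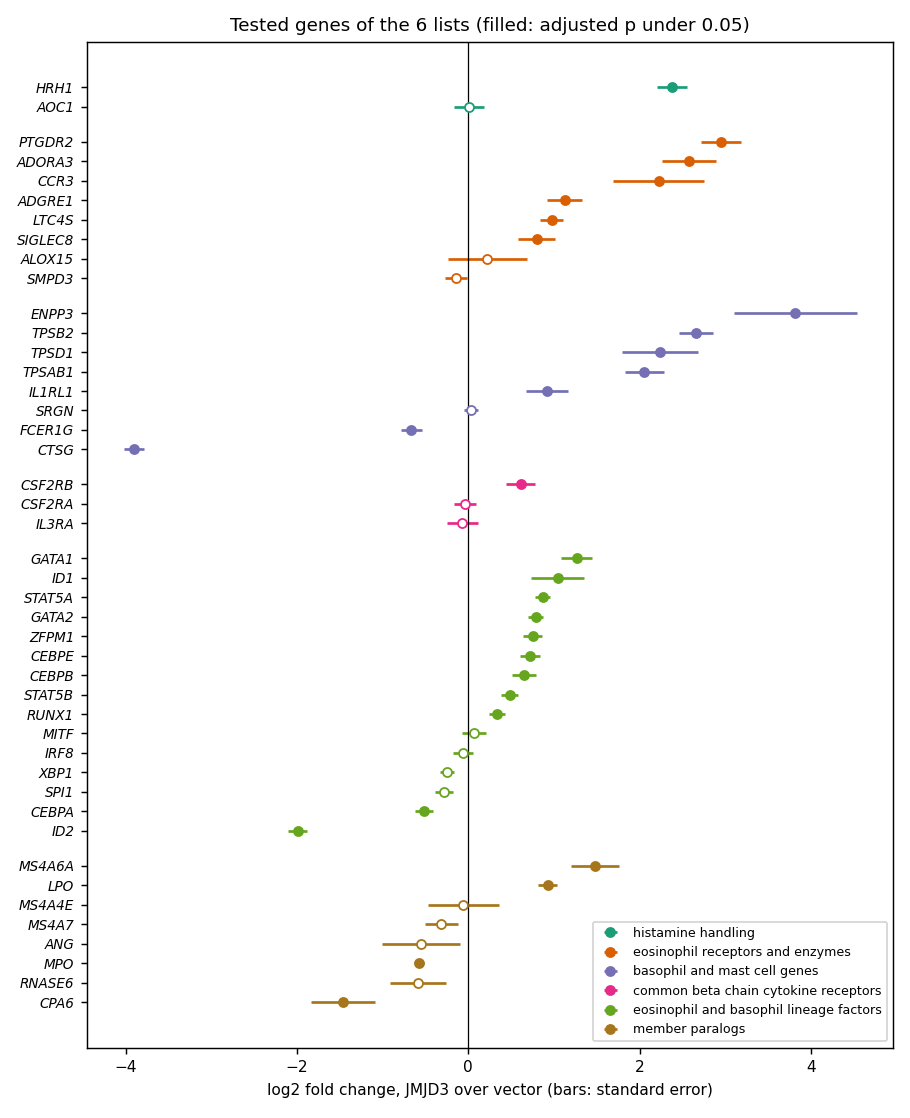
Fitted log2 fold change of JMJD3 over vector cells (horizontal axis) with its standard error (bars) for the 44 tested genes of the 6 lists, coloured by list, where filled points had an adjusted p under 0.05. ENPP3 and PTGDR2 lie farthest to the right at 3.82 and 2.95, and CTSG farthest to the left at -3.91.

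Histamine can be degraded by HNMT or AOC1 and is sensed by a family of receptors, and 2 of the 8 genes of histamine handling were tested. HRH1, the receptor targeted by classical antihistamines, was at 1.76 and 1.87 CPM in the vector libraries and at 8.31 and 10.5 CPM in the JMJD3 libraries. On the log2 scale it rose by 2.38, with a standard error of 0.18 and an adjusted p of 0.000834 by edgeR. The other receptors, named after their values were seen, were too low to be tested and were not higher on average in JMJD3 cells. HRH2 had 8 and 14 fragments in vector cells and 7 and 6 in JMJD3 cells, at 0.247 and 0.384 against 0.188 and 0.134 CPM. HRH3 had 3 fragments in vector library 1 and 0 in the other libraries, and HRH4 had between 1 and 4 in each library. AOC1, named after its values were seen, had 92 and 128 against 115 and 148 fragments and did not pass (adjusted p = 0.961 by edgeR), with a direction that turned between fits. HNMT had between 0 and 3 fragments a library, and the transporters SLC18A2, which loads histamine into vesicles, and SLC22A3 were at 0 in the 4 libraries. HDC was thus at 324 CPM in JMJD3 cells with no fragment of the vesicular transporter detected.

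Of the 9 eosinophil receptors and enzymes, 8 were tested, of which 6 rose and 0 fell, with a median log2 fold change of 1.05. PTGDR2, the prostaglandin D2 receptor CRTH2, had 28 and 55 fragments in vector cells and 347 and 401 in JMJD3 cells (log2 fold change 2.95, adjusted p = 0.000968 by edgeR). It shares 149 exon bases, 5.2% of its own, with CCDC86 on the opposite strand, which had between 6612 and 9550 fragments a library. Whether reads of CCDC86 were assigned to PTGDR2 was not tested. ADORA3, an adenosine receptor, had 6 and 10 against 52 and 59 fragments (log2 fold change 2.58, adjusted p = 0.00240). Like CCR3, it passed the filter on low counts through the JMJD3 libraries alone. With no filter the adjusted p of ADORA3 was 0.0168 by edgeR. CCR3, the eotaxin receptor, had 2 and 5 against 15 and 22 fragments (log2 fold change 2.22, adjusted p = 0.0172), and did not pass without JMJD3 library 2 (adjusted p = 0.0665), with the DESeq2 Wald test (0.0845) or with no filter (0.0528), over a range from 0.00248 to 0.0845 among the alternatives. Its size rested on the vector libraries, with a log2 fold change of 1.70 without vector library 1 and 2.97 without vector library 2. ADGRE1, the human F4/80 homologue found on eosinophils, was at 1.02 and 1.29 against 2.52 and 2.53 CPM (log2 fold change 1.13, adjusted p = 0.00730). The groups did not overlap for any of these 4 genes, which was a condition for naming them and so is no finding. Of the receptor that directs eosinophil production, IL5RA, a total of 2 fragments was found in JMJD3 library 1 and 0 in the other 3 libraries.

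Basophil and mast cell genes were split, with 8 of 17 tested, of which 5 rose and 2 fell (median log2 fold change 1.48). The tryptases TPSB2, TPSAB1 and TPSD1, proteases of mast cell granules, rose by log2 fold changes of 2.66, 2.05 and 2.24 (adjusted p = 0.000901, 0.00200 and 0.00942 by edgeR). TPSD1 passed the filter through the JMJD3 libraries alone, and with no filter its adjusted p was 0.0356 by edgeR. TPSAB1 and TPSB2 transcripts are 98.8% identical with a shared run of 682 bases. TPSD1 is 90.4% identical to TPSAB1 and 90.6% to TPSB2, with shared runs of 207 and 128 bases, so the division of reads among the 3 genes is uncertain. Their sum was 1.39 and 1.37 CPM in the vector libraries and 7.67 and 6.65 CPM in the JMJD3 libraries, a 5.19-fold difference. ENPP3, the basophil surface marker CD203c, had 1 fragment in each vector library and 20 and 13 in the JMJD3 libraries, a ratio of 13.9 (exact 95% counting interval 3.55 to 119), with an adjusted p of 0.00802 from edgeR that became 0.105 with limma on log2(FPKM + 1), over a range from 5.95e-05 to 0.105 among the alternatives. ENPP3 passed the filter through the JMJD3 libraries alone, and with no filter its adjusted p was 0.0329. IL1RL1, the IL-33 receptor, completes the 5, had 21 and 25 against 47 and 56 fragments (adjusted p = 0.0256 by edgeR) and was named after its values were seen. It did not pass without JMJD3 library 1 (adjusted p = 0.140) or 2 (0.134), on either FPKM scale or with the DESeq2 Wald test (0.178), over a range from 0.0172 to 0.178.

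CTSG, cathepsin G, is shared by mast cells and azurophil granules and moved the other way, from 4688 and 5971 fragments in the vector libraries to 409 and 429 in the JMJD3 libraries. It fell by 3.91 on the log2 scale (standard error 0.12, adjusted p = 9.25e-05 by edgeR). FCER1G, the signalling chain of the IgE receptor, fell by 0.67 (adjusted p = 0.00747), and did not pass without JMJD3 library 2 (adjusted p = 0.0629, the highest among the alternatives, against a lowest of 0.000236). FCER1A, the chain that binds IgE, had 0 fragments in the 4 libraries, as did TPSG1, HPGDS, IL4 and MRGPRX2, so MS4A2 was higher in cells with no fragment of its ligand-binding partner. SRGN, the granule proteoglycan core protein that binds histamine and proteases, was at 1357 and 1386 CPM in vector cells and at 1493 and 1314 CPM in JMJD3 cells, ranges that overlapped (adjusted p = 0.765 from edgeR).

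IL-3, IL-5 and GM-CSF signal through a common beta chain, CSF2RB. It was at 12.1 and 9.11 CPM in vector cells and at 14.8 and 17.6 CPM in JMJD3 cells (log2 fold change 0.61, adjusted p = 0.0269 by edgeR), which made it the 1 gene of 3 that rose, with 0 that fell and a median log2 fold change of -0.04. This call was lost without vector library 2 (adjusted p = 0.0555) or JMJD3 library 2 (0.133), with limma on either FPKM scale and with no filter, over a range from 0.000206 to 0.133. CSF2RA, the GM-CSF receptor alpha chain, was at 13.6 and 16.3 against 15.0 and 14.1 CPM and did not pass (adjusted p = 0.828).

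The 15 lineage factors were all tested, of which 9 rose and 2 fell, with a median log2 fold change of 0.48. GATA1, needed for eosinophils and mast cells, had 42 and 44 fragments in vector cells and 116 and 130 in JMJD3 cells (log2 fold change 1.27, adjusted p = 0.00365 by edgeR). GATA2, a regulator of basophil and mast cell genes, was at 57.1 and 54.7 against 98.3 and 94.4 CPM (log2 fold change 0.78, adjusted p = 0.00191). STAT5A, which relays cytokine signals, was at 69.1 and 75.4 against 131 and 133 CPM (log2 fold change 0.87, adjusted p = 0.00148). ID1, an inhibitor of helix-loop-helix factors, had 11 and 14 against 30 and 33 fragments (adjusted p = 0.0363), and lost its call without vector library 1 (0.0592), JMJD3 library 1 (0.219) or JMJD3 library 2 (0.149) with the DESeq2 Wald test (0.240) or with no filter (0.0580), over a range from 0.0214 to 0.240.

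In the other direction, ID2, a related inhibitor, was at 23.4 and 23.8 CPM in vector cells and at 5.71 and 6.15 CPM in JMJD3 cells, and fell by 1.99 on the log2 scale (adjusted p = 0.000375 by edgeR). CEBPA, a factor of granulocyte progenitors, fell by 0.52 (adjusted p = 0.0106), and did not pass without JMJD3 library 2 (adjusted p = 0.0739, against a lowest of 9.81e-06 among the alternatives). SPI1 (PU.1), XBP1 and IRF8 had adjusted p-values of 0.0711, 0.0514 and 0.676 and did not pass. Without vector library 1 the values of SPI1 and XBP1 were 0.0107 and 0.00667, within a range from 0.00293 to 0.461 for SPI1 and from 0.00667 to 0.568 for XBP1. SPI1 also passed with the DESeq2 Wald test (0.0418) and XBP1 with DESeq2 size factors (0.0449), and both with a block of crossed replicate numbers that was chosen after seeing the data. CEBPE, which drives late granule genes, was named after its values were seen, and rose from 71.2 and 87.8 to 136 and 126 CPM (adjusted p = 0.00515).

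Of 30 paralogs of the members 8 were tested, 2 rose and 2 fell (median log2 fold change -0.44), and 12 were at 0 in the 4 libraries. MPO, the peroxidase of azurophil granules and a paralog of EPX, fell by 0.57 on the log2 scale (adjusted p = 0.00168 by edgeR), from 13876 and 14110 CPM to 9379 and 9421 CPM. LPO, lactoperoxidase, rose from 286 and 328 to 644 and 740 fragments (log2 fold change 0.92, adjusted p = 0.00210). The 3 peroxidases thus differed in direction or size, while the EPX and MPO transcripts are 76.2% identical over 2153 aligned bases, with a longest shared run of 44 bases. CPA6, of the carboxypeptidase family of CPA3, had 18 and 29 against 9 and 11 fragments and fell by 1.47 (adjusted p = 0.0218), and did not pass without JMJD3 library 1 (0.0861) or 2 (0.0942), nor in the fits with no filter, with limma on FPKM or with DESeq2's own test, over a range from 0.00961 to 0.108.

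Markers of the line itself and of other cells were set beside these values. Of 6 promyelocyte markers 1 rose (CD33) and 4 fell (MPO, PRTN3, AZU1 and CTSG), with summed levels of 16577 and 17373 CPM in the vector libraries and 10474 and 10436 CPM in the JMJD3 libraries. MPO was the most abundant, and the defining marker ELANE was near 0, with 11 and 7 against 1 and 2 fragments. MPO, PRTN3, AZU1, CTSG and CD33 were thus detected in the line, and whether the ELANE values come from the cells or from the counting was not tested. CD33 lost its call under 8 of its 13 alternatives, with adjusted p-values from 0.00942 to 0.636, among them the fits without JMJD3 library 1 (0.402) or 2 (0.285), and AZU1 did not pass with no filter (0.0574, against a lowest of 3.57e-06).

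Eosinophil markers summed to 1.14 and 1.56 CPM in vector cells and 2.65 and 2.64 CPM in JMJD3 cells, where SIGLEC8 was the most abundant, 2 of 3 rose (SIGLEC8 and CCR3) and IL5RA was at or near 0. SIGLEC8 lost its call under 7 of its 13 alternatives, with adjusted p-values from 0.00922 to 0.126. These were the fits without vector library 1 (0.0591) or JMJD3 library 1 (0.0969) or 2 (0.0982), with no filter (0.0619), with limma on both FPKM scales and with the DESeq2 Wald test (0.126). Mast cell markers summed to 1.23 and 1.29 against 6.86 and 6.09 CPM, where TPSB2 was the most abundant, 2 of 4 rose (TPSAB1 and TPSB2) and FCER1A was at 0. These sums are small beside those of the promyelocyte markers. The erythroid genes HBA1, HBA2, HBB, HBG1, HBG2 and ALAS2 were at 0 in the 4 libraries, although GATA1 also serves that lineage.

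Megakaryocyte markers summed to 0.617 and 0.713 against 1.77 and 1.68 CPM, with ITGA2B the most abundant, 1 of 4 higher at an adjusted p under 0.05 and PF4 and GP9 at 0. On the FPKM scales ITGA2B did not pass (adjusted p = 0.0858 and 0.0748 by limma, against a lowest of 0.000159 among its alternatives). Monocyte markers summed to 33.7 and 31.3 against 49.1 and 52.2 CPM, with FCN1 the most abundant, 2 of 3 higher (FCN1 and CSF1R) and CD14 near 0 at 8 to 13 fragments a library. FCN1 did not pass without JMJD3 library 1 (adjusted p = 0.107) or 2 (0.275), nor with limma on FPKM or with no filter, over a range from 0.00202 to 0.275. T cell markers summed to 3.76 and 5.18 against 11.0 and 11.1 CPM, and this was CD2, which rose from 3.48 and 4.85 to 10.8 CPM in both JMJD3 libraries. The defining T cell genes were near 0, CD3E with between 0 and 2 fragments a library and CD3D with between 8 and 10. CD3D was at 0.247 and 0.274 against 0.241 and 0.224 CPM, but at 0.413 and 0.470 against 0.529 and 1.35 FPKM, so its direction depended on the scale. B cell markers summed to 10.4 and 11.6 against 17.6 and 15.9 CPM, with CD79A the most abundant, 1 of 3 higher and MS4A1 at 0. The monocyte, T cell, B cell and megakaryocyte sums were therefore higher in JMJD3 cells as well, through 1 or 2 genes of each list, and their part in the values of the 10 genes was not tested.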

How the data were processed

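Poly(A) RNA of NB4 cells was sequenced in 2 vector and 2 JMJD3 libraries, grouped by their titles. The deposited estimated counts were read as fragments multiplied by a factor for each library, because most values were whole multiples of a step. The sources used here do not describe such a factor. The authors also deposited FPKM. The paper names STAR, hg19 and HTSeq-count, the series text BWA and TopHat with Cufflinks, and the submitters' processing notes TopHat2, RSEM and GRCh38. Which of these made the columns is not stated. Culture medium (DMEM or RPMI-1640) and RNA kit (Trizol or column) also differ between labels and paper. The authors' fold changes, p-values and FDR were not used. Estimated counts were rounded to whole numbers, filtered with filterByExpr (15246 of 60662 genes kept), normalised by TMM and entered, without covariates, into the quasi-likelihood test (glmQLFit, glmQLFTest) of edgeR 4.0.16 in R 4.3.3, with Benjamini-Hochberg adjustment over all genes tested. The code was first tested on simulated data. CPM used the unrounded counts. Alternatives used DESeq2 1.42.0 and limma 3.58.1. Gene positions and transcripts came from GENCODE release 44 on GRCh37, matched by gene identifier. Transcripts were aligned locally with Biopython 1.88 in place of a planned protein comparison, which was not run. Transcript identity and neighbouring genes were chosen after seeing the data. The members and lists were chosen with earlier results of these data known. Named genes were the members, KDM6B, in each list up to 4 genes a direction with the largest change among those with an adjusted p under 0.05 and groups that did not overlap, up to 3 genes at 10 CPM or more that did not pass, and each marker list's most abundant gene and genes at 0. The results for 2 marker genes are not reported here.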

Additional observations from a re-analysis of the deposited data

How the results depend on the processing

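With groups of 2 libraries and 34190352 to 41876181 fragments a library, PRG3, CLC, CPA3, CCR3 and ENPP3 rest on few fragments, and their sizes are loosely bounded. Members are untested values: over 13 alternatives HDC lay between 3.35 and 3.48, PRG2 between 1.88 and 2.12 and MS4A2 between 0.94 and 1.34 (log2 fold change). PRG3, over 12, lay between 0.65, with limma on log2(FPKM + 1), and 3.14. That scale understates low genes. Of the values of the 8 tested members under the alternatives, 83 moved by less than the SD between replicates and 20 by more. That SD was the larger of those of the 2 groups, on the log2 scale. In a group of 2 libraries, leaving out a single library moves the mean by less than the SD of that group. The number of small moves is thus partly set by this rule.

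At an adjusted p under 0.05 and at least 2-fold, 1151 genes were higher and 430 lower in JMJD3 cells. These counts were 293 and 168 with limma on log2(FPKM + 1), and 3292 and 2906 with no fold limit. Leaving out single libraries gave 979 to 1384 higher and 363 to 575 lower, and among the listed genes 17 to 23 higher and 3 to 8 lower, with 3 lower without JMJD3 library 2. A lone library in a group is then assumed to vary like the other group. With the replicate block 1243 were higher and 476 lower. Same-numbered libraries did not deviate together (r = -0.16 across 15246 genes), and a block with crossed numbers, chosen after seeing the data, gave 1233 and 469. Counts with the library step divided out, also chosen afterwards, gave 1157 and 438, of which 1137 and 425 were shared with the first counts. KDM6B lay between 1.19 and 1.58 and passed under its 13 alternatives.

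Among named genes that had not passed, the direction turned for 6. With DESeq2 size factors and its Wald test SRGN was at -0.00065 and -0.00065, and AOC1 at -0.02315 and -0.02314. With limma on log2(FPKM + 1) and log2(FPKM + 0.1) AOC1 was at -0.05561 and -0.0853, GABPB1 at -0.0976 and -0.1008, CSF2RA at 0.11 and 0.11, and IRF8 at 0.13 and 0.14. With single libraries left out SRGN lay between -0.062 and 0.12, AOC1 between -0.1721 and 0.1773, CSF2RA between -0.20 and 0.10, IRF8 between -0.17 and 0.0098, and CD14 between -0.2235 and 0.4684. The cause was not tested. Of the other values of named genes, 494 kept their direction and side of the threshold, 71 lost their call and 6 gained one.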
